A study of Rattus norvegicus with 12 samples.

Results

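Arc, Nptx1, Nptx2, Plk2, Plk3 and Nrn1 are genes whose products act on synapses after neuronal activity. Their probe sets were taken wherever the array annotation gave 1 of these symbols and no other. This found 4 probe sets among 15866, with 1 probe set each for Arc (1387068_at), Nptx1 (1370517_at), Plk2 (1368106_at) and Nrn1 (1386969_at). No probe set carried the symbol of Nptx2 or Plk3 alone, so these genes were not analysed here. Each level below therefore rests on a single probe set, and other transcripts of the gene may be missed.

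Strong depolarization opens voltage-gated calcium channels, and the calcium that enters switches on transcription within minutes through factors such as CREB and SRF. Some of the genes induced encode further transcription factors, while others encode proteins that reach the synapse directly. Arc promotes the endocytosis of AMPA-type glutamate receptors. Neuronal pentraxins, secreted proteins encoded by Nptx1 and Nptx2, gather AMPA receptors on the cell surface. Plk2 and Plk3 are polo-like kinases, and Plk2 marks the postsynaptic protein SPAR, encoded by Sipa1l1, for degradation. Nrn1 encodes neuritin, a small membrane-anchored protein that promotes the growth of neurites and synapses.

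The samples were cultures of ventral midbrain from embryonic day 12 rats, labelled strain CD1, expanded for 6 days with basic fibroblast growth factor and Sonic hedgehog and kept 3 more days without either factor. Depolarized cultures received 56 mM KCl for 2 h and were collected 30 min or 2 h after its removal. Control cultures spent the same total time in control medium, and each of the 4 groups held 3 arrays, with replicates 1 to 3 collected at 30 min and 4 to 6 at 2 h. All embryos came from 4 pregnant rats and were combined into pools that were handled separately, and RNA of duplicate cultures was combined, so the spread between arrays is that of pooled cultures and not of animals. Whether the 30 min and the 2 h cultures came from the same preparation is not given in the sources used here.

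Values are log2 expression summaries from the RMA method, in which 1 unit is a 2-fold difference. Array medians lay between 8.33 and 8.43, and the correlation between arrays of the same group, over probe sets, was 0.996 to 0.998. The table carries no detection calls, so a low value cannot be told from absence. Differences were tested with limma in a single fit of all 12 arrays, and adjusted p is the Benjamini-Hochberg value over all 15866 probe sets, with 0.05 as the threshold.

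The 4 genes followed 4 different courses. Arc was high 30 min after depolarization and lower, but still raised, at 2 h. Nptx1 reached its high level only in the depolarized arrays of 2 h, where it was 3.88-fold above controls. Plk2 was 1.89-fold above its controls at 30 min and did not pass at 2 h, where the controls themselves stood higher. Nrn1 passed in neither treatment comparison.

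**Figure D1:**
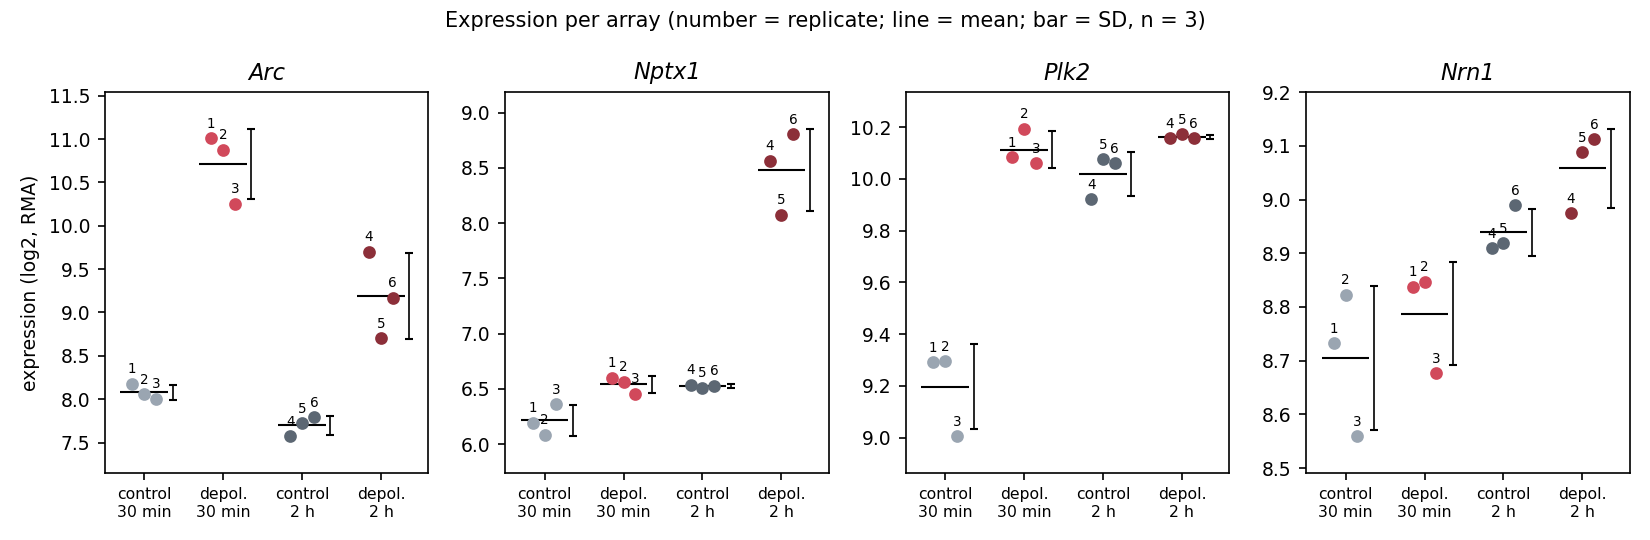
Expression of each gene on every array (log2, RMA), by group, with each point numbered by its replicate, the group mean as a line and the SD of 3 arrays as a bar. Arc and Nptx1 reach different peaks, at 30 min and 2 h, while the low group for Plk2 is the 30 min controls alone, and Nrn1 spans less than 0.6 units in all.

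Mean levels of Arc were 10.71 ± 0.40 and 9.19 ± 0.50 in depolarized cultures of 30 min and 2 h and 8.08 ± 0.09 and 7.70 ± 0.11 in their controls (SD, n = 3), and only the control groups, lowest in this order, did not differ past the threshold. For Nptx1 the order ran from the 2 h depolarized group (8.48 ± 0.37) to the 30 min depolarized group (6.54 ± 0.08), the 2 h controls (6.53 ± 0.015) and the 30 min controls (6.21 ± 0.14), and no neighbours among the lower 3 differed past the threshold. Plk2 was at 10.16 ± 0.0088, 10.11 ± 0.07 and 10.02 ± 0.09 in the 2 h depolarized, 30 min depolarized and 2 h control groups, whose neighbours did not pass, and at 9.20 ± 0.17 in the 30 min controls. Nrn1 was at 9.06 ± 0.07 and 8.94 ± 0.04 in depolarized and control cultures of 2 h and at 8.79 ± 0.10 and 8.71 ± 0.13 in those of 30 min, with no neighbours past the threshold.

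The genes were chosen with earlier results of these data known, so the counts below are a description and no test of the set. At 30 min, 2 of the 4 probe sets rose, Arc and Plk2, and 0 fell, where 10.8% of all probe sets rose and 13.1% fell. Depolarized and control arrays did not overlap for 3 of the 4, all higher, a pattern that 17.9% of probe sets showed. At 2 h, 2 rose, Arc and Nptx1, and 0 fell, where 9.51% of all probe sets rose and 15.7% fell. The arrays did not overlap for 3 of the 4, all higher, as for 15.4% of probe sets. After median centring of the arrays 2339 probe sets rose and 1631 fell at 30 min, in place of 1720 and 2085, and at 2 h 2014 rose and 1903 fell, in place of 1509 and 2492. The size of the response differed between collection times in 3 of the 4, smaller at 2 h for Arc and Plk2 and larger for Nptx1. Over all probe sets this signed difference was called in 13% (6.16% higher and 6.79% lower at 2 h). The sign is kept here and in later counts of probe sets, so a deeper fall at 2 h counts as a smaller response. From 30 min to 2 h within depolarized cultures, 2 rose, 1 fell and 3 of 4 had arrays that did not overlap. Among all probe sets 19.2% rose, 21.8% fell and 49.9% had arrays that did not overlap.

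Arc was at 8.18, 8.06 and 8.01 in control replicates 1 to 3 and at 11.01, 10.88 and 10.25 in depolarized replicates 1 to 3. All 3 depolarized arrays lay more than 2 units above every control, with replicate 3 the lowest of them. The rise was 2.63 log2 units (SE 0.20, adjusted p = 9.87e-08), or 6.20-fold with a 95% confidence interval of 4.63 to 8.31. It was the 6th largest rise among all probe sets at this time.

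At 2 h Arc stood at 7.58, 7.72 and 7.79 in control replicates 4 to 6 and at 9.70, 8.70 and 9.17 in depolarized replicates 4 to 6. The groups did not overlap, and the depolarized arrays spread over a full log2 unit, from replicate 5 at the bottom to replicate 4 at the top. Arc rose by 1.49 (SE 0.20, adjusted p = 6.12e-05), or 2.82-fold (95% confidence interval 2.10 to 3.78). Without depolarized replicate 5 the rise was 1.74, and without replicate 4 it was 1.24.

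The Arc response at 2 h was smaller than that at 30 min by 1.14 log2 units (difference -1.14, SE 0.28, adjusted p = 0.0128). This call was lost with a trended and robust prior (adjusted p = 0.0532), the highest of all settings, over which it went down to 0.00121. Between the depolarized groups themselves Arc was 1.52 lower at 2 h than at 30 min (SE 0.20, adjusted p = 1.71e-05). This was a 2.87-fold difference, and the arrays did not overlap. Between the control groups the difference was -0.38 (adjusted p = 0.147), with every 2 h control below every 30 min control. Fitted with the control arrays alone that difference passed (adjusted p = 0.00167), and over the other settings adjusted p went up to 0.331. Higher at both times with a smaller response at 2 h, as Arc was, described 73 probe sets, 0.460% of all.

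Nptx1 was at 6.19, 6.08 and 6.36 in control replicates 1 to 3 and at 6.60, 6.56 and 6.46 in depolarized replicates 1 to 3. These groups lay apart by less than 0.1 units, and the difference of 0.33 did not pass (SE 0.13, 95% confidence interval 0.051 to 0.60, adjusted p = 0.0847). It did pass in a fit of only those 6 arrays (adjusted p = 0.0134), after median centring (0.0374), with array weights (0.0279), and without depolarized replicate 5 (0.00674) or 6 (0.0339) of the 2 h group, while over all settings adjusted p reached 0.262. Those last arrays enter the comparison only through the shared estimate of spread.

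By 2 h Nptx1 was at 8.56, 8.08 and 8.80 in depolarized replicates 4 to 6 against 6.54, 6.51 and 6.53 in their controls. Each depolarized array stood at least 1.5 units above the controls, which agreed to within 0.03 units. Nptx1 rose by 1.96 (SE 0.13, adjusted p = 7.3e-08), or 3.88-fold (95% confidence interval 3.21 to 4.69), the 21st largest rise at that time. Depolarized replicate 5 was again the lowest, as for Arc, and without it the rise was 2.16.

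The Nptx1 response was larger at 2 h than at 30 min by 1.63 (SE 0.18, adjusted p = 2.85e-05), the 8th largest such increase. The 2 h depolarized arrays were also 1.94 above the 30 min depolarized arrays (SE 0.13, adjusted p = 2.23e-08). Control arrays differed between times by 0.31 (adjusted p = 0.0732), which passed when depolarized replicate 5 (0.00697) or 6 (0.0317) of 2 h was left out and reached an adjusted p of 0.232 over all settings. The 30 min depolarized arrays (6.46 to 6.60) overlapped the 2 h controls (6.51 to 6.54), and the 2 h depolarized arrays stood above all others. Higher at 2 h with a larger response there, as for Nptx1, described 437 probe sets, 2.75% of all.

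Plk2 was at 9.29, 9.29 and 9.01 in control replicates 1 to 3 and at 10.08, 10.19 and 10.06 in depolarized replicates 1 to 3. The groups lay well apart, with a gap of more than 0.7 units. Plk2 rose by 0.92 (SE 0.078, adjusted p = 3.79e-07), or 1.89-fold (95% confidence interval 1.68 to 2.12).

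At 2 h Plk2 was at 9.92, 10.08 and 10.06 in control replicates 4 to 6 and at 10.16, 10.17 and 10.16 in depolarized replicates 4 to 6. The depolarized arrays agreed to within 0.02 units and lay just above all controls. The difference of 0.14 did not pass (SE 0.078, 95% confidence interval -0.023 to 0.31, adjusted p = 0.21), so the data allow a rise of up to 1.24-fold. The response at 2 h was smaller than at 30 min by 0.77 (difference -0.77, SE 0.11, adjusted p = 0.000227).

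For Plk2 the depolarized groups of the 2 times were close in level while the controls were not. The 2 h controls were 0.82 above the 30 min controls (SE 0.078, adjusted p = 8.08e-07), whereas the depolarized groups differed by 0.050 (95% confidence interval -0.12 to 0.22, adjusted p = 0.64) and overlapped. Set against the 30 min controls, the 2 h depolarized arrays were 0.97 higher (adjusted p = 1.53e-07). Set against the 2 h controls, the 30 min depolarized arrays were 0.093 higher (adjusted p = 0.327). Like Plk2, 126 probe sets, 0.794% of all, were higher at 30 min and had a smaller response at 2 h. These 126 were also higher in the 2 h than in the 30 min controls and not called between the depolarized groups. The count did not require the 2 h response to be uncalled, as it was for Plk2. Collection time and any difference between the preparations of the 2 times cannot be told apart.

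**Figure D2:**
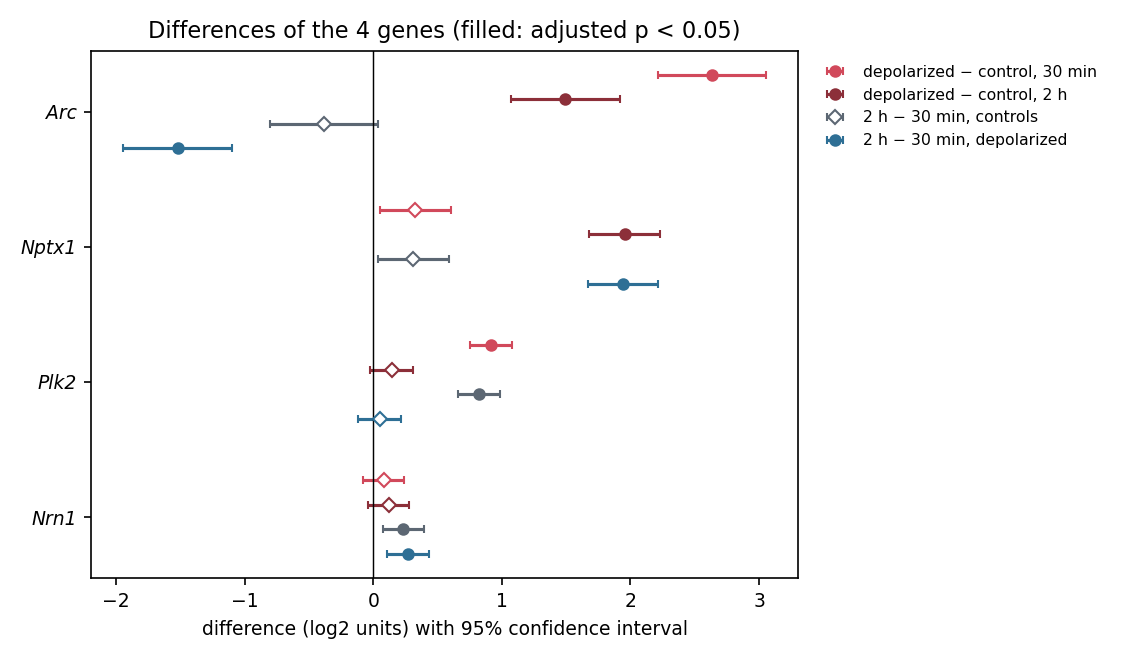
Differences of the 4 genes in log2 units with 95% confidence intervals, for depolarized against control at each time and for 2 h against 30 min within controls and within depolarized cultures (filled, adjusted p below 0.05). For Plk2 the interval of the 2 h response spans 0 and the control difference of 0.82 is close to the 30 min response of 0.92.

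The window around the annotated start of Plk2 is shown because it holds a full cyclic AMP response element (CRE, TGACGTCA), the palindrome that CREB binds. Promoter sequences were taken from RefSeq (GRCr8), from 250 bases before to 50 after the gene's start. The table held windows for Plk2, Plk3 and Nptx2 of the 6 genes, and only Plk2 of these 3 was measured. The Plk2 window lies at chr2:43702286-43702585 on the plus strand, with the CRE in capitals at positions -66 to -59 from the start.

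Plk2: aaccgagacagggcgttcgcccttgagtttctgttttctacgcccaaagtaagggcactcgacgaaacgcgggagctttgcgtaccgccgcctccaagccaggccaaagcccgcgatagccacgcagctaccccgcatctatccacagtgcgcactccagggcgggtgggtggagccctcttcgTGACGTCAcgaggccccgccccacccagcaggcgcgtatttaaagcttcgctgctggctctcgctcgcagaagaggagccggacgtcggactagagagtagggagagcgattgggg

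Both strands were searched for the CRE, its part TGACG (which lies within the full CRE), the AP-1 site TGANTCA, the EGR site GCGNGGGCG and the CArG box bound by SRF. Of 33469 windows of this length, 1.83% held the full CRE, 21.2% TGACG, 7.33% the AP-1 letters, 4.98% the EGR letters and 1.64% a CArG box. The Plk2 window held the CRE and none of the other 3 motifs. A match describes letters in this window and not binding.

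Nrn1 was at 8.73, 8.82 and 8.56 in control replicates 1 to 3 and at 8.84, 8.85 and 8.68 in depolarized replicates 1 to 3. The groups overlapped and differed by 0.082 (SE 0.075, 95% confidence interval -0.078 to 0.24, adjusted p = 0.526). At 2 h the controls were at 8.91, 8.92 and 8.99 and the depolarized arrays at 8.97, 9.09 and 9.11. These overlapped too, with a difference of 0.12 (SE 0.075, 95% confidence interval -0.041 to 0.28, adjusted p = 0.288). The upper ends of these intervals correspond to rises of 1.18-fold and 1.21-fold.

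The responses of Nrn1 at the 2 times differed by 0.037 (95% confidence interval -0.19 to 0.26, adjusted p = 0.891). Nrn1 was higher at 2 h than at 30 min in controls by 0.23 (SE 0.075, adjusted p = 0.0239) and in depolarized cultures by 0.27 (SE 0.075, adjusted p = 0.00916). In controls this did not pass once control replicate 3 (0.16, adjusted p = 0.134) or replicate 6 (0.21, adjusted p = 0.0686) was left out, nor after quantile normalization (0.19, adjusted p = 0.0744), with adjusted p from 0.0139 to 0.134 over all settings. A rise with collection time in both conditions and no treatment call, as for Nrn1, was found for 871 probe sets, 5.49% of all.

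**Figure D3:**
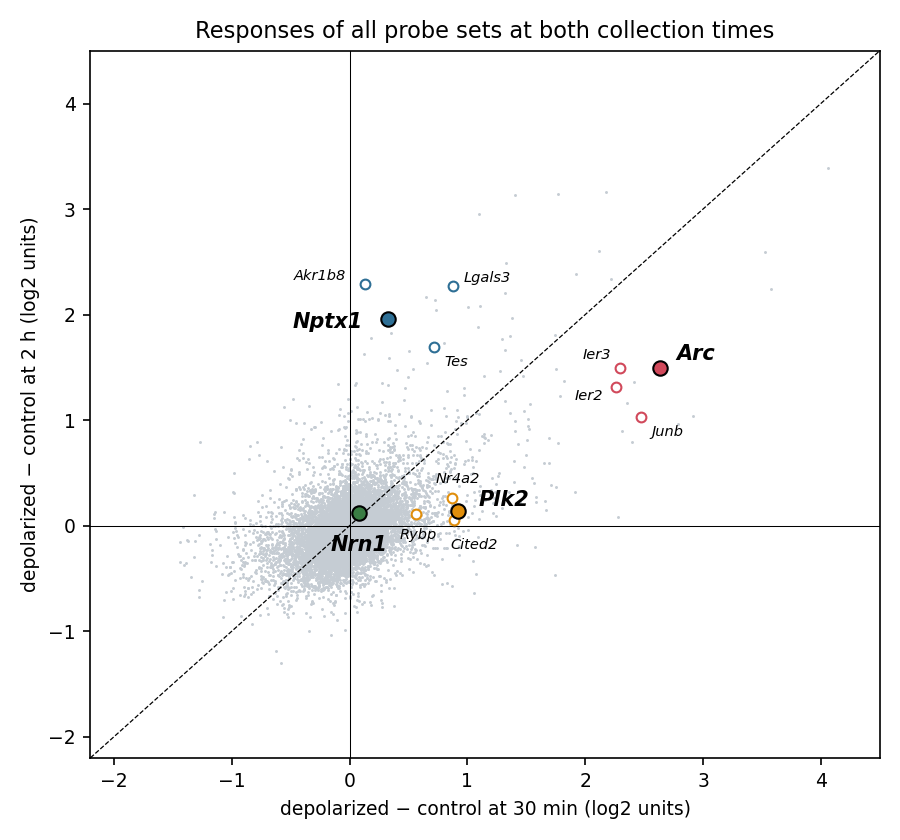
Depolarized minus control at 30 min (x axis) against the same at 2 h (y axis), in log2 units, with every probe set in grey, the 4 genes as large points and the closest genes to Arc, Nptx1 and Plk2 as open circles; the dashed line marks equal responses. Arc (2.63 and 1.49) and Plk2 (0.92 and 0.14) lie below the line, Nptx1 (0.33 and 1.96) above it, and Nrn1 (0.082 and 0.12) in the bulk of the array.

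Controls of the 2 collection times differed across much of the array, with 18.1% of probe sets higher and 17.2% lower at 2 h. Of the 4 genes, 2 were higher in the 2 h controls (Plk2 and Nrn1) and 0 were lower, and control arrays did not overlap for any of the 4, as for 49.5% of probe sets. All 8 measured of 10 pan-neuronal markers were higher in the 2 h controls, with a median difference of 1.04 against -0.041 over all probe sets. Their summed level was at 13.90 to 14.13 log2 units in the 30 min controls and at 15.14 to 15.16 in the 2 h controls. The neurofilament genes Nefl and Nefm were higher by 1.26 and 0.91. All 3 GABAergic markers (median 1.49) and 6 of 8 measured dopaminergic markers (median 0.70) were higher too. Of 5 progenitor markers, 4 were lower (median -0.43), and of 5 measured of 7 oligodendrocyte lineage markers, 4 were lower. Of 6 astrocyte markers, 1 was higher and 2 were lower. The 2 glutamatergic markers and the 7 of endothelium, mural cells and fibroblasts each had 1 higher and 1 lower. Of 5 microglial markers 0 were called. Between the depolarized groups 7 of the 8 neuronal markers were also higher at 2 h (median 0.98, against -0.049 over all probe sets). All 3 GABAergic and 4 of 8 dopaminergic markers were higher there. Lower were 3 of 5 progenitor and 4 of 5 oligodendrocyte lineage markers. Among all probe sets 19.2% were higher and 21.8% lower. More neurons and more RNA per neuron cannot be told apart in such bulk samples. The part of these markers in the differences of the 4 genes between collection times was not tested.

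Within a collection time, depolarized and control cultures were compared for the same markers. Of all probe sets, 10.8% rose and 13.1% fell at 30 min, and 9.51% rose and 15.7% fell at 2 h. At 30 min 1 of 8 neuronal markers rose, Nefm, and at 2 h 2 of 8 rose, Nefl and Nefm, with 0 falls at either time. Their summed level in depolarized cultures was 14.06 to 14.17 at 30 min, overlapping its controls, and 14.99 to 15.15 at 2 h, again overlapping. Astrocyte markers had 0 of 6 called at both times. Of 8 measured dopaminergic markers, 2 rose and 0 fell at 30 min, Nr4a2 and Foxa2. The summed level of the 8 was 10.80 to 10.99 in controls and 11.18 to 11.28 in depolarized cultures, without overlap. Nr4a2 is part of this sum and is named below among the genes closest to Plk2. The median difference of the 8 at 30 min was 0.31, against 0.014 over all probe sets. The part of Nr4a2 in the higher sum was not tested. At 2 h 3 rose (Nr4a2, Foxa2 and Slc18a2) and 1 fell (Aldh1a1), and the summed levels overlapped. Of 5 measured oligodendrocyte lineage markers, 1 fell at each time, Pdgfra, by 0.58 and 0.75. Their summed level was lower in depolarized cultures without overlap at both times, at 12.24 to 12.57 against 12.60 to 12.90 in controls at 30 min and at 10.96 to 11.07 against 11.21 to 11.46 at 2 h. Of 5 microglial markers 1 rose at 30 min, Cd68, with overlapping summed levels, and 0 were called at 2 h, where the summed level was 9.80 to 9.91 against 9.68 to 9.76 in controls, without overlap. Sox2, 1 of 5 progenitor markers, rose at 2 h, and Pdgfrb, 1 of 7 markers of endothelium, mural cells and fibroblasts, fell at both times, with overlapping summed levels for both lists. The GABAergic and glutamatergic lists had 0 called and overlapping summed levels at both times. The part of these markers in the responses of the 4 genes was not tested. The series title describes cultures enriched in dopaminergic neurons. Th (7.39 to 8.22 over all arrays) and the dopamine transporter gene Slc6a3 (7.31 to 8.25) lay below every array's median. Slc18a2, Nr4a2 and Pitx3 did so too. Foxa2 (8.91 to 10.17) lay above every array's median, and Ddc (8.27 to 10.18) and Aldh1a1 (7.86 to 10.58) ranged from below to above the medians. Enrichment in dopaminergic neurons was not tested.

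**Figure D4:**
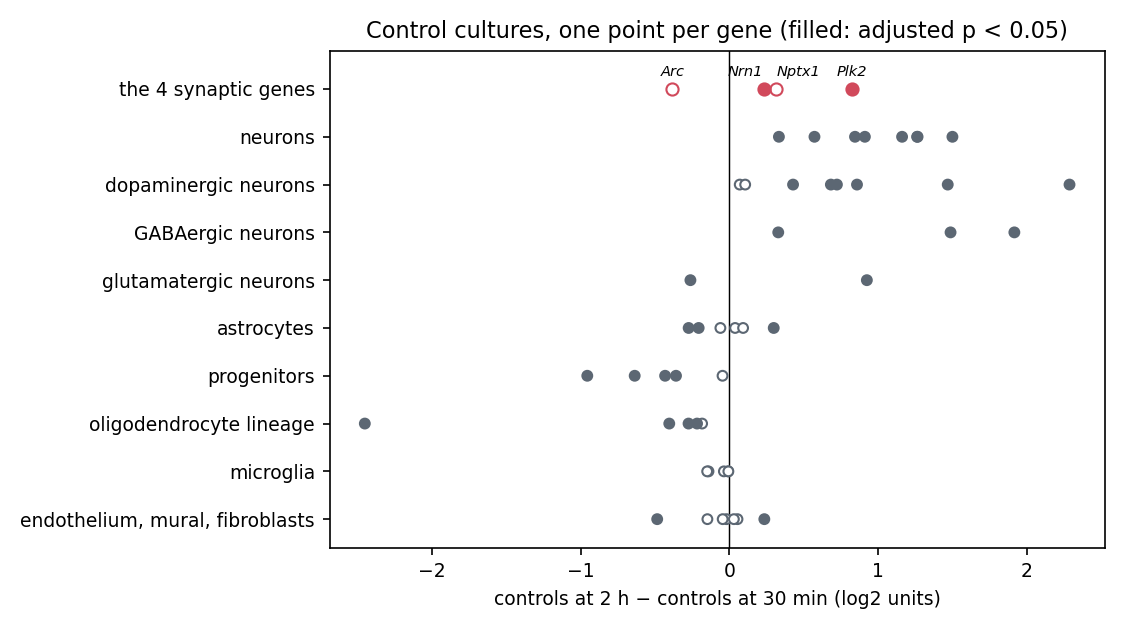
Controls collected at 2 h minus controls collected at 30 min, in log2 units, for the 4 genes and for each measured marker of 9 cell types (filled, adjusted p below 0.05). All 8 pan-neuronal markers lie to the right of 0, as do Plk2 (0.82), Nrn1 (0.23) and Nptx1 (0.31), with Arc (-0.38) to the left.

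The genes with the most similar course were found by the root mean square (RMS) difference over the 12 arrays, each probe set centred on its own mean. Since they were chosen for their likeness over these same arrays, their values are a description, with no test. For Arc these were the immediate-early genes Ier2 (RMS 0.22), Junb (0.23) and Ier3 (0.26), against a median of 1.19 over all genes. The Junb protein is part of AP-1, a dimeric transcription factor. The depolarized minus control difference at 30 min was 2.26 for Ier2, 2.47 for Junb and 2.30 for Ier3, and at 2 h it was 1.31, 1.03 and 1.50.

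For Nptx1 the closest were the aldo-keto reductase gene Akr1b8 (RMS 0.23), the focal adhesion gene Tes (0.28) and the galectin gene Lgals3 (0.28), against a median of 0.94. The response at 30 min was 0.13 for Akr1b8, 0.72 for Tes and 0.88 for Lgals3, beside 0.33 for Nptx1. At 2 h the same differences were 2.29, 1.69 and 2.27, beside 1.96 for Nptx1.

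The group means of Plk2 spanned 0.97 units, just under the 1 unit required for this search, so its closest genes are a description chosen after its values were seen. They were the transcriptional coregulator gene Cited2 (RMS 0.13), the nuclear receptor gene Nr4a2 (0.13) and Rybp (0.17), a gene of a Polycomb complex, against a median of 0.44. Between the 2 h and the 30 min controls the difference was 0.80 for Cited2, 0.86 for Nr4a2 and 0.48 for Rybp. Their responses at 30 min were 0.89, 0.87 and 0.57. At 2 h they were 0.051, 0.26 and 0.11. Another Nr4a2 probe set was at 0.67 at 30 min and at 0.24 at 2 h.

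**Figure D5:**
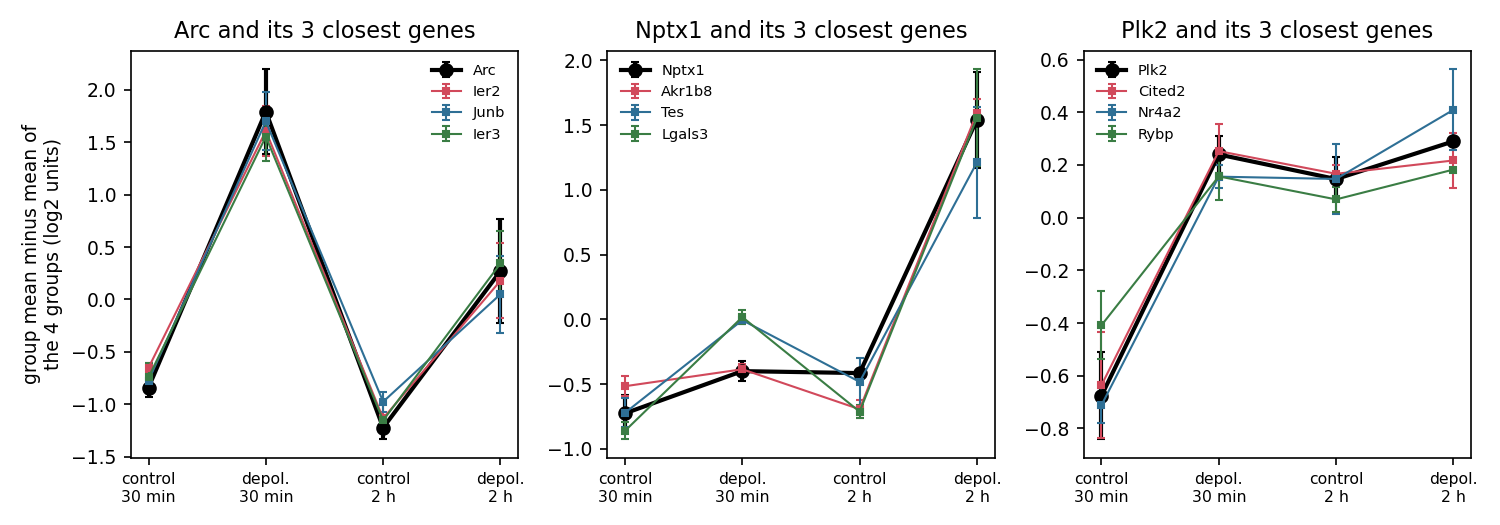
Group means of Arc, Nptx1 and Plk2 (black) and the 3 closest genes to each, in log2 units from the mean of the 4 groups, with the SD of 3 arrays. The Plk2 set is low in the 30 min controls alone, the Nptx1 set peaks in the 2 h depolarized group, and the Arc set peaks in the 30 min depolarized group.

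Of these 9 genes, 6 had a promoter window, and only that of Ier2 held the full CRE, also at -66 to -59. TGACG was in 3 of the 6, with that of Ier2 part of its full CRE, and in 21.2% of all windows. The AP-1, EGR and CArG motifs were in 0 of 6. Among all windows 7.33%, 4.98% and 1.64% held them, so 6 windows are too few to read their absence as a result. The bases around the CRE are given for Plk2 (chr2:43702459-43702488, plus strand) and Ier2 (chr19:40399296-40399325, plus strand), because these genes share the motif and its position while their courses differed, with the CRE in capitals.
Plk2: agccctcttcgTGACGTCAcgaggccccgc
Ier2: tggcgtttcagTGACGTCActcttactcta

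Genes whose products work with these proteins at the synapse were taken as 4 lists. Of all probe sets, 10.8% rose and 13.1% fell at 30 min, and 9.51% rose and 15.7% fell at 2 h. The counts of every list are to be read beside these shares, and no list was tested as a set. Among AMPA receptor subunits and their auxiliary proteins, 0 of 17 measured genes rose and 2 fell at 30 min (median 0.060, against 0.014 over all probe sets). At 2 h 0 rose and 3 fell (median -0.039, against -0.00069 over all). Pick1, which binds AMPA receptors and acts in their internalization, fell by 0.34 at 30 min (SE 0.087, adjusted p = 0.00843). Nsf, an ATPase of membrane fusion that also binds an AMPA receptor subunit, fell by 0.25 at 30 min (adjusted p = 0.0346, a call lost under 1 of 3 other scalings) and fell by 0.44 at 2 h (SE 0.080, adjusted p = 0.000852). All 3 Nsf probe sets fell at 2 h. The stargazin gene Cacng2 fell by 0.44 at 2 h (adjusted p = 0.0107), and its other probe set was at -0.11 (adjusted p = 0.525). The AMPA receptor subunit gene Gria3 was the other that fell, by 0.31 (adjusted p = 0.0312), a call lost under all 3 other scalings.

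Nptxr, the transmembrane pentraxin receptor that assembles with Nptx1, was chosen after its values were seen. Its brighter probe set differed by 0.20 at 30 min (adjusted p = 0.115, although it passed under all 3 other scalings) and by -0.024 at 2 h (adjusted p = 0.881). The other was at 0.031 and 0.035. Between the controls the brighter was 0.86 higher at 2 h and the other 0.29 lower (difference -0.29), so the Nptxr probe sets disagree in direction.

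Of 14 measured partners of Arc in endocytosis and turnover, 0 rose and 1 fell at 30 min (median -0.00057), and 1 rose and 3 fell at 2 h (median -0.044). The endophilin gene Sh3gl1 rose by 0.36 at 2 h (SE 0.070, adjusted p = 0.00133). Rnf216, a ubiquitin ligase reported to target Arc, fell by 0.36 at 2 h (adjusted p = 0.00294), and at 30 min its difference of -0.22 did not pass (adjusted p = 0.0566). Notch1 fell by 0.37 at 30 min (adjusted p = 0.00639), and its other probe set fell by 0.40. The dynamin gene Dnm1 fell by 0.22 and the kinase gene Camk2b fell by 0.30 at 2 h, both calls lost under at least 2 of 3 other scalings.

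The list of other polo-like kinases and of genes tied to Plk2 or Plk3 as substrates or in their pathway left out Plk2 itself, which is described above. Of its 8 measured genes, 2 rose and 0 fell at 30 min (median 0.093), and 1 rose and 3 fell at 2 h (median -0.056). Sipa1l1, which encodes the Plk2 substrate SPAR, rose by 0.25 at 30 min (SE 0.064, adjusted p = 0.00835) and was at -0.062 at 2 h (adjusted p = 0.546). Rapgef2, an exchange factor for Rap proteins, rose by 0.39 at 30 min (adjusted p = 0.00224) and by 0.37 at 2 h (adjusted p = 0.00353). The mitotic kinase gene Plk1 was at 0.082 at 30 min (adjusted p = 0.425) and fell by 0.36 at 2 h (adjusted p = 0.000526). Plk4, which drives centriole duplication, fell by 0.43 at 2 h (adjusted p = 0.00136). At 30 min Plk4 was at -0.10 (adjusted p = 0.457). The kinase gene Cdk5 fell by 0.30 at 2 h (adjusted p = 0.0139). The signed responses of Plk1, Sipa1l1 and Cdk5 were each lower at 2 h than at 30 min (adjusted p = 0.00296, 0.0322 and 0.0309). For Plk1 and Cdk5 this was a fall called at 2 h alone, and not a rise that faded. With a higher signed response at 2 h, 0 of the 8 passed. Over all probe sets 6.79% were called lower and 6.16% higher.

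Of 13 postsynaptic scaffold genes, 1 rose and 0 fell at 30 min (median 0.0095), and 1 rose and 2 fell at 2 h (median -0.015). Dlg1 rose by 0.22 at 30 min (adjusted p = 0.0285), though its other probe set was at 0.0015 (adjusted p = 0.993). Dlgap2 was at 0.14 (adjusted p = 0.181). At 2 h the brightest Shank2 probe set fell by 0.47 (SE 0.091, adjusted p = 0.00122) while its other was at 0.067 (adjusted p = 0.679). Dlg3 fell by 0.37 (adjusted p = 0.000768) at its brightest of 3 probe sets, and the others did not pass. Homer3, a gene of the Homer scaffold family, rose by 0.29 (adjusted p = 0.0372), a call lost under 2 of 3 other scalings.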

How the data were processed

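The deposited table holds log2 expression values. Per the submitters' processing notes the authors used RMA (version not given in the sources used here), and the values, from 4.41 to 14.58, lie on the log2 scale. Of 15923 probe sets, 57 array controls were left out and 15866 tested. Gene names came from the platform annotation, which can be old; the symbols of the 4 genes matched RefSeq by gene identifier. No further normalization was applied. A means model of the 4 groups (8 residual degrees of freedom) was fitted with limma 3.58.1 in R 4.3.3, two-sided, without a block, and tested on simulated data. Precision is limited by the number of arrays. Listed genes were taken at their brightest probe set, and those named are the 2 with the smallest p per list and treatment comparison; others were named after their values were seen, to complete a small count. The 3 closest genes were named for members whose group means spanned at least 1 log2 unit. Members and lists were chosen with earlier results of these data known. Alternatives were other scalings, filters, priors, thresholds, array weights, a replicate block and leaving out each array; comparisons with controls from the other collection time were added after seeing the data.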

Additional observations from a re-analysis of the deposited data

Results flagged for a closer look

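For 3 of the 4 genes the response to depolarization differed between the collection times by limma's interaction test. The response at 2 h minus that at 30 min was -1.14 log2 units for Arc (adjusted p = 0.0128), 1.63 for Nptx1 (adjusted p = 2.85e-05) and -0.77 for Plk2 (adjusted p = 0.000227). The signs were the same in every fit, with ranges of -1.39 to -0.89, 1.47 to 1.83 and -0.82 to -0.68. For Arc and Nptx1 the depolarized groups differed between times as well, whereas for Plk2 the controls did.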

How the results depend on the processing

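Leaving out each array, 232 of 240 values for the 4 genes and 5 comparisons kept their direction and their side of the threshold, and 160 of 172 did under other filters, scalings, priors and thresholds, a fit of fewer arrays, array weights or a replicate block. Leaving out an array outside a comparison cannot change its difference, and neither can another filter, prior or threshold. Part of both counts therefore kept its direction by construction. With the replicate number as a block the Arc and Plk2 rises at 30 min were 2.63 and 0.92. The Arc and Nptx1 rises at 2 h were 1.49 and 1.96. The block was fitted only for both treatment comparisons and the response difference, where it changed no call. The numbers were not taken as pairs, because the labels do not say that a number marks a shared preparation. Deviations from the group means correlated at -0.32 to 0.24 for same-numbered arrays and at -0.42 to 0.35 for others. Taken from means of only 3 arrays, these deviations cannot decide whether the numbers are pairs. The Nptx1 difference at 30 min passed in a fit of only the arrays compared (0.33), after median centring (0.38) and with array weights (0.32), and ranged from 0.26 to 0.40 without single arrays. The Nptx1 control difference passed in a fit of only those arrays (0.31), after quantile normalization (0.40), with the loess trend removed (0.40) and with array weights (0.30), and ranged from 0.25 to 0.39 without single arrays, and it passed when depolarized replicate 5 of 2 h was left out (adjusted p = 0.00697) and when replicate 6 was (0.0317). The Arc control difference passed in a fit of only those arrays (-0.38). The Arc response difference of -1.14 was lost with the trended and robust prior and at adjusted p 0.01. The Nrn1 control difference was lost after quantile normalization (0.19) and at adjusted p 0.01 (0.23), and ranged from 0.16 to 0.29 without single arrays. The Nrn1 response difference ranged from -0.022 to 0.11 and turned sign without control replicate 2 (-0.022) or depolarized replicate 3 (-0.019) of 30 min. Against the controls of the other collection time, the Plk2 difference was 0.093 at 30 min and 0.97 at 2 h, and that of Nrn1 was -0.15 at 30 min and 0.35 at 2 h. When the probe sets of each gene were averaged, 2 Arc partners fell at 30 min and 0 postsynaptic scaffold genes rose there, and the other list counts at 30 min and 2 h moved by 1.5 times or less. At adjusted p 0.01, 934 probe sets rose and 1476 fell at 2 h, against 1509 and 2492 at 0.05. The signed response was higher at 2 h for 544 and lower for 541, against 978 and 1077. Between the controls 1574 fell, against 2730, and between the depolarized groups 2151 fell, against 3461. The 3 genes closest to Arc and to Nptx1 were the same by mean absolute difference. The causes of these changes were not tested, except that a fit of fewer arrays takes its spread from those arrays alone.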
